A study of Mus musculus with 12 samples.

Results

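Activity-dependent immediate early genes were described in neonatal mouse cortex after deletion of histone H3.3. The set was chosen by name and holds 10 of the 51912 genes counted in each library: Ier5, Jun, Fos, Junb, Egr1, Egr3, Nr4a1, Dusp6, Nptx2 and Arc. Each name matched 1 gene identifier. RNA of cortex at postnatal day 0 was measured in 12 libraries. Of these, 4 were labelled control, 4 carried a conditional knockout of both H3.3 genes, H3f3a and H3f3b, driven by Neurod6-Cre (dKO-N), and 4 carried the same knockout driven by Emx1-Cre (dKO-E). The control genotype is not described further in the labels. Neurod6-Cre acts in newborn excitatory neurons that have left the cell cycle, and Emx1-Cre acts earlier, in the progenitors of those neurons. Interneurons, microglia and blood vessels lie outside both lineages, so each library held RNA of cells that kept H3.3. The comparisons, as designed, set deletion after the last division and deletion from the progenitor onward against control.

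Immediate early genes are transcribed within minutes of a stimulus, from promoters that are held ready and need no new protein. In neurons the usual stimulus is calcium entry through NMDA receptors and voltage-gated channels, or BDNF at its receptor TrkB, relayed by calcium-dependent kinases and the ERK cascade to the transcription factors CREB, SRF and MEF2. The products include transcription factors (Fos, Junb, Egr1, Egr3, Nr4a1), brakes on the signal (the ERK phosphatase Dusp6), and proteins that act at synapses (Arc and Nptx2). No stimulus is named in the labels, so the levels are those of dissected tissue.

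The libraries held 722080 to 3502017 counts in genes, with the shallowest and the deepest both in dKO-N. Depth went with the group: dKO-N 1 to 3 held 722080, 1046240 and 746318 counts, below every dKO-E library (1452515 or more) and every control library (1974975 or more). A gene was tested where its counts were high enough in a group's worth of libraries, which 11076 genes were. Levels are given in CPM, counts scaled to a common library size with TMM, edgeR's factor for library composition, and 1 count corresponded to 0.30 to 1.38 CPM. As a check of the labels, control 1 to 4 had 17.7, 117, 16.4 and 121 CPM of H3f3a, while dKO-N had 22.1 to 37.8 CPM and dKO-E had 22.9 to 30.0 CPM. Control 1 and control 3 therefore lay below every knockout library for this gene, and results are also given without them. Because the labels do not describe the control genotype, this need not go against the label. In H3f3b the same libraries were the higher controls, at 121 and 143 CPM against 76.7 and 84.2 CPM in control 2 and 4. The reason was not tested. In H3f3b the groups overlapped for dKO-N (76.7 to 143 CPM in control, 111 to 146 CPM in dKO-N), and dKO-E stood above both (167 to 180 CPM). The knockout libraries thus showed no loss of H3f3b RNA and went against their labels for this gene, where counts cover the whole gene and the deleted part is not given in the sources used here. Group names below are those of the labels. Y-linked genes gave 1035 and 274 counts in dKO-E 3 and 4 and at most 3 in any other library, and results are also given without those 2.

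Most of the set had little RNA in this tissue. Summed over all 12 libraries, Junb had 12 counts, Egr3 had 15, Fos had 18, Arc had 19, Nr4a1 had 53 and Egr1 had 78. Nptx2 had 110, Dusp6 had 202, Ier5 had 522 and Jun had 1047. Only the last 4 had enough counts to be tested. Divided by exonic length, the mean level in control libraries was highest for Jun at 11.6 CPM per kb, followed by Dusp6 at 4.23, Ier5 at 3.11 and Nptx2 at 2.80, and the other members lay between 0.134 (Egr3) and 0.926 (Egr1) CPM per kb. In dKO-N and dKO-E, Jun stood at 15.6 and 15.9 CPM per kb, followed by Ier5 at 10.5 and 9.33, Dusp6 at 1.97 and 2.11 and Nptx2 at 1.33 and 1.35, so Ier5 passed above Dusp6 in the order.

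Of the 4 tested members, 1 was higher (Ier5) and 1 lower (Dusp6) in dKO-N than in control, by edgeR's quasi-likelihood test with Benjamini-Hochberg adjustment over all 11076 genes and a threshold of 0.05. Among all genes tested, 11.3% changed in that comparison. In dKO-E, 1 was higher (Ier5) and 2 were lower (Dusp6 and Nptx2), where 20.2% of all genes changed. Both comparisons use the same 4 control libraries, so they are not independent of each other. In whole tissue, fewer cells that express a gene and less of its RNA per cell cannot be told apart.

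Ier5 encodes a nuclear protein that binds the phosphatase PP2A and the heat shock factor HSF1 and is induced by growth factors and cellular stress. It lies on chromosome 1 (mm10, 155096361 to 155099636, minus strand), and its gene model is a single exon with no intron. Its level in control 1 to 4 was 9.54, 11.2, 8.64 and 11.4 CPM. In dKO-N 1 to 4 it was 34.0, 47.6, 31.7 and 24.6 CPM. In dKO-E 1 to 4 it was 39.2, 28.4, 30.1 and 24.6 CPM. Every knockout library, of either driver, lay above every control library, and the knockout groups overlapped. The mean rose from 10.2 ± 1.32 CPM (SD, n = 4) to 34.5 ± 9.59 in dKO-N, a log2 fold change of 1.70 (SE 0.231, 95% interval 1.23 to 2.17, adjusted p = 5.95e-07 by edgeR). In dKO-E it rose to 30.6 ± 6.19 CPM, a log2 fold change of 1.58 (SE 0.220, 95% interval 1.13 to 2.03, adjusted p = 4.35e-07). The fitted rises were 3.25-fold and 2.99-fold, where the median log2 fold change over all genes was 0.014 and 0.0068. Groups that did not overlap, with the knockout above, were seen in 5.84% of all tested genes for dKO-N and 12.5% for dKO-E. Without control 1 and 3 the log2 fold changes were 1.54 and 1.42, and the calls held. The difference between dKO-E and dKO-N was -0.12 (95% interval -0.51 to 0.28, adjusted p = 0.778).

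**Figure D1:**
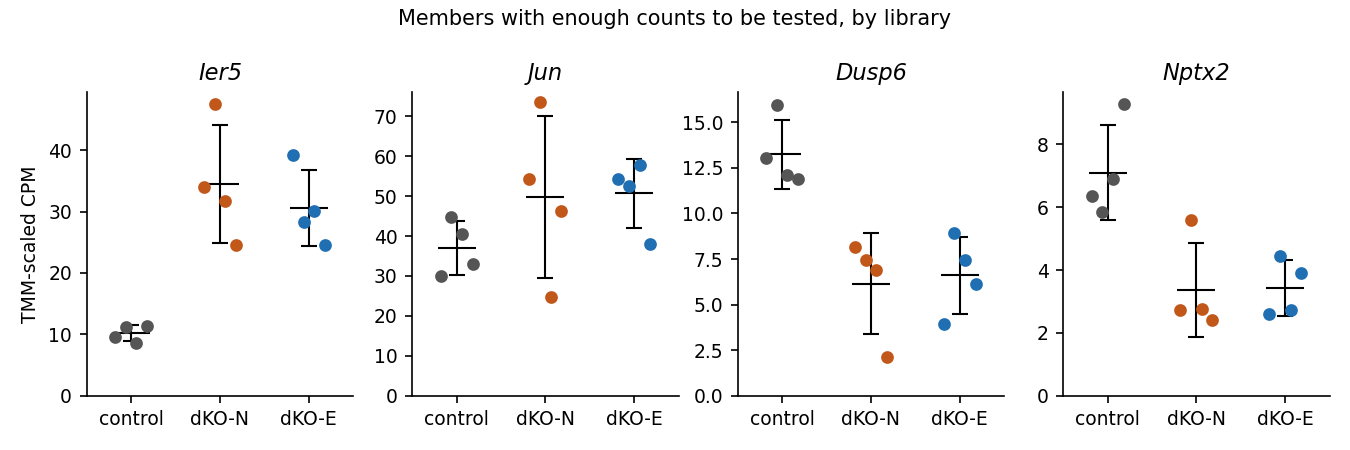
TMM-scaled CPM (vertical axis) of the 4 members with enough counts to be tested, 1 panel each, by group; points are libraries, and the bar and whisker are the mean ± SD of 4 libraries. Ier5 in all 8 knockout libraries sits between 24.6 and 47.6 CPM, above the control libraries at 8.64 to 11.4 CPM, while Dusp6 and Nptx2 in the knockout libraries sit below every control library.

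The genes whose profile over the 12 libraries was most like that of Ier5 were Lypd1, Aff1 and Nkain3. They were picked among 7629 genes of similar or higher abundance as those with the smallest root-mean-square difference in centred log2 CPM, which was 0.24, 0.27 and 0.35. Each rose with both drivers (log2 fold changes 1.37, 1.52 and 1.32 for Neurod6-Cre, then 1.50, 1.54 and 1.46 for Emx1-Cre). The likeness rests on the same group differences and is a description. Aff1 encodes a subunit of a complex that promotes transcription elongation, and Nkain3 encodes a membrane protein that interacts with the sodium pump.

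The tested genes nearest to Ier5 were looked at after its values were known. Stx6, a syntaxin gene that starts 59.1 kb beyond Ier5, had a mean of 105 ± 5.48 CPM in control. It stood at 130 ± 11.6 with the Neurod6 driver (log2 fold change 0.31, adjusted p = 0.0456 by edgeR) and 121 ± 11.4 with the Emx1 driver (0.20, adjusted p = 0.171). The next one, BC034090, 112.8 kb away on the same side, rose from 4.41 ± 0.744 CPM to 14.9 ± 4.91 with Neurod6-Cre (log2 fold change 1.63, adjusted p = 0.000449) and 12.7 ± 4.27 with Emx1-Cre (1.49, adjusted p = 0.000404). On the other side Cacna1e, a calcium channel gene 211.9 kb away, fell in both comparisons (log2 fold changes -0.56 and -0.50). Beyond it Glul, the glutamine synthetase gene, rose in dKO-E (0.41, adjusted p = 0.0238) and had a log2 fold change of 0.14 in dKO-N (adjusted p = 0.634). Of these 4 neighbours, BC034090 moved by about the size of the rise in Ier5. It entered the test through its knockout libraries, so a rise was the direction in which it could differ by much.

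Jun encodes c-Jun, which pairs with Fos proteins to form the AP-1 transcription factor or binds DNA with another Jun protein. It lies on chromosome 4 (95049034 to 95052222, minus strand), has no intron, and overlaps the antisense gene Junos. The strand setting of the counting is not given in the sources used here, so reads of the 2 genes may not be separated. Jun was measured at 30.0, 44.7, 40.6 and 33.1 CPM in control 1 to 4. The dKO-N libraries had 54.4, 73.7, 24.8 and 46.3 CPM, and the dKO-E libraries had 54.2, 52.7, 57.8 and 38.0 CPM, each in the order 1 to 4. The groups overlapped in both comparisons, through dKO-N 3, the lowest library of all, and through dKO-E 4. The fitted log2 fold changes were 0.45 (SE 0.205, 95% interval 0.03 to 0.87) in dKO-N and 0.47 (SE 0.191, 95% interval 0.08 to 0.86) in dKO-E. Neither passed the test across all genes, with adjusted p = 0.187 and 0.0866 by edgeR. The dKO-N value passed without dKO-N 3 (0.60, adjusted p = 0.0269), and the dKO-E value passed in several alternatives, with adjusted p from 0.0096 to 0.0413 there.

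Jund, the Jun family member that is expressed steadily rather than induced, rose from 28.3 ± 3.28 CPM to 44.8 ± 11.8 with Neurod6-Cre (log2 fold change 0.59, adjusted p = 0.0443 by edgeR) and 45.0 ± 10.9 with Emx1-Cre (0.67, adjusted p = 0.00614). Its dKO-N call was lost in 10 of 22 alternatives. Fosl2, which encodes the AP-1 subunit Fra-2, fell in dKO-E by 0.90 on the log2 scale (adjusted p = 0.0037), from 15.2 to 27.4 CPM in control to 8.39 to 13.7 CPM.

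Fos was near the limit of counting. Control 1 to 4 held 1, 0, 2 and 1 counts, dKO-N 1 to 4 held 0, 1, 0 and 2, and dKO-E 1 to 4 held 2, 3, 3 and 3. Scaled for depth, the dKO-E libraries lay at 1.17 to 1.68 CPM, above all control libraries (0 to 0.864 CPM) and all dKO-N libraries (0 to 0.933 CPM). Of all tested genes, 12.5% had dKO-E wholly above control and 5.4% had it wholly above dKO-N. Group sums, here and below, were divided by the raw total counts of the group without TMM, unlike the levels of single libraries. The TMM factors left out were 0.926 to 0.978 in control and 1.03 to 1.07 in dKO-E. Deeper libraries weigh more in such sums, and dKO-N 4 held 3502017 of the 6016655 counts of dKO-N. Summed over a group, Fos stood at 0.422 CPM in control (4 counts, exact Poisson 95% interval 0.115 to 1.08), 0.499 CPM in dKO-N (3 counts, 0.103 to 1.46) and 1.36 CPM in dKO-E (11 counts, 0.679 to 2.43). These intervals cover counting error only, and all 3 overlap. Junb, on chromosome 8 (84974484 to 84978718, minus strand), had at most 2 counts in any library, with group sums of 7, 3 and 2 counts in control, dKO-N and dKO-E. Its end overlaps Prdx2 on the opposite strand. No difference in Junb was detectable at this depth.

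Egr1 and Egr3 encode zinc finger transcription factors that follow ERK activity in neurons. Egr1 had 10, 4, 11 and 12 counts in control 1 to 4 (2.13 to 6.20 CPM). It had 1, 5, 3 and 4 counts in dKO-N 1 to 4 (1.20 to 4.66 CPM) and 4, 8, 9 and 7 counts in dKO-E 1 to 4 (2.61 to 3.92 CPM). The groups overlapped. Over the group sums Egr1 stood at 3.90 CPM in control (exact Poisson 95% interval 2.75 to 5.38), 2.16 in dKO-N (1.15 to 3.69) and 3.46 in dKO-E (2.30 to 5.00). The dKO-N sum mostly follows its deepest library, dKO-N 4, which had the lowest level at 1.20 CPM. Means of the 4 libraries, with TMM, were 4.15, 2.84 and 3.32 CPM in control, dKO-N and dKO-E. Egr3 had 5, 3 and 7 counts per group, 5 of the last in dKO-E 3 alone. Among their corepressors, Nab1 fell by 0.45 on the log2 scale in dKO-E (adjusted p = 0.0223 by edgeR), a call lost in 8 of 22 alternatives (adjusted p up to 0.259), including without control 1, dKO-E 2 or dKO-E 4.

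Nr4a1 encodes the nuclear receptor Nur77. It had 6, 7, 6 and 8 counts in control 1 to 4 (2.12 to 4.13 CPM), 3, 1, 1 and 8 in dKO-N 1 to 4 (0.933 to 4.08 CPM) and 4, 2, 6 and 1 in dKO-E 1 to 4 (0.559 to 2.61 CPM). Group sums gave 2.85 CPM in control (exact Poisson 95% interval 1.88 to 4.14), 2.16 in dKO-N (1.15 to 3.69) and 1.61 in dKO-E (0.855 to 2.75), with overlapping libraries throughout. The other two receptors of the family were far more abundant and fell with both drivers. Nr4a2, also a marker of subplate and deep-layer neurons, was measured at 50.1 to 78.8 CPM in control, 5.51 to 12.2 CPM in dKO-N and 1.96 to 11.2 CPM in dKO-E. Its log2 fold changes were -2.81 (adjusted p = 6.17e-09 by edgeR) and -3.20 (adjusted p = 7.62e-11). Nr4a3 lay at 71.7 to 93.5 CPM in control, 26.2 to 40.8 CPM in dKO-N and 19.6 to 42.5 CPM in dKO-E, with log2 fold changes of -1.33 (adjusted p = 5.03e-07) and -1.34 (adjusted p = 4.28e-08). For both genes every knockout library lay below every control library, where 7.19% of tested genes did so for dKO-N and 13.0% for dKO-E.

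**Figure D2:**
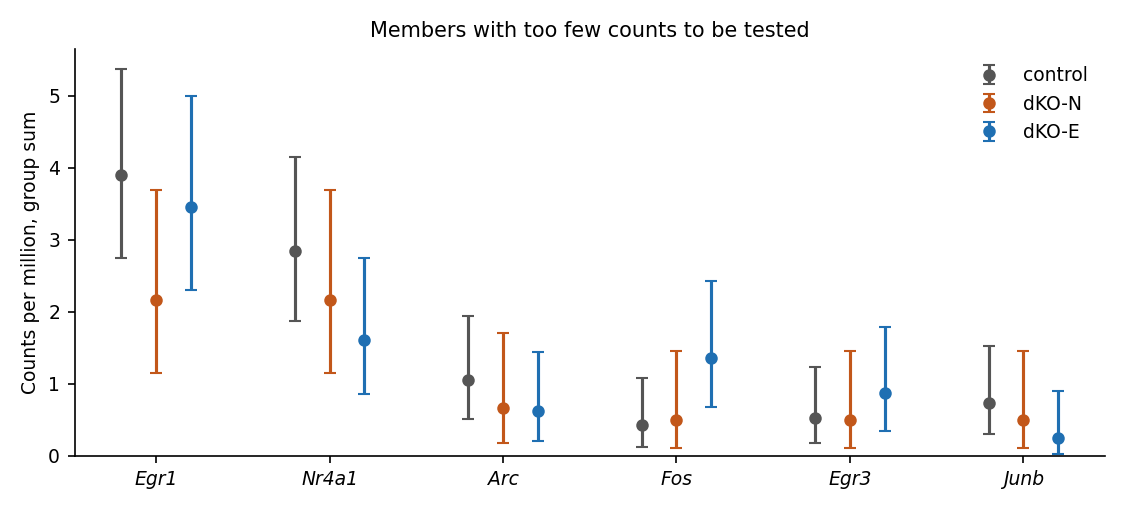
CPM over the summed counts of each group (vertical axis) for the 6 members with too few counts to be tested, by group; bars are exact Poisson 95% intervals, which cover counting error only. The intervals of the 3 groups overlap for every one of the 6 genes, from Junb with 12 counts in all to Egr1 with 78.

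Arc encodes a capsid-forming protein that travels to active synapses and removes AMPA receptors. It had 1, 2, 1 and 6 counts in control 1 to 4, 0, 1, 0 and 3 in dKO-N 1 to 4, and 1, 0, 3 and 1 in dKO-E 1 to 4. Control 4, at 3.10 CPM, was the only library above 1.17 CPM. Group sums gave 1.05 CPM (exact Poisson 95% interval 0.506 to 1.94), 0.665 (0.181 to 1.70) and 0.618 (0.201 to 1.44). In an edgeR fit of 24466 genes with no filter on low counts, 0 of these 6 members passed in dKO-N or in dKO-E, and 0 had an unadjusted p under 0.05. In that fit 4.94% and 8.76% of all genes changed (3.05% between the knockouts), and the smallest adjusted p of the 6 was 0.576 in dKO-N (Egr1) and 0.411 in dKO-E (Nr4a1). The fitted log2 fold changes had wide 95% intervals, from -1.91 to 0.28 for Egr1 in dKO-N and from -2.14 to 0.24 for Nr4a1 in dKO-E, so falls of over 2-fold lay within them.

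Dusp6 encodes a cytoplasmic phosphatase that inactivates ERK and is itself induced by ERK signalling. It lies on chromosome 10 (99263231 to 99267489, plus strand). Control 1 to 4 had 13.1, 16.0, 12.1 and 11.9 CPM of Dusp6. Levels were 8.16, 7.46, 6.89 and 2.10 CPM in dKO-N 1 to 4, then 3.92, 8.91, 7.42 and 6.15 CPM in dKO-E 1 to 4. All 8 knockout libraries lay below all control libraries, a pattern that 7.19% of tested genes showed for dKO-N and 13.0% for dKO-E. With Neurod6-Cre the mean fell from 13.3 ± 1.89 to 6.15 ± 2.75 CPM (log2 fold change -1.44, SE 0.374, 95% interval -2.20 to -0.68, adjusted p = 0.0056 by edgeR). The fitted fold, in which deeper libraries weigh more, was 2.71 and larger than the ratio of these means. With Emx1-Cre the mean dropped to 6.60 ± 2.12 CPM (log2 fold change -0.94, SE 0.305, 95% interval -1.56 to -0.32, adjusted p = 0.0223). The size in dKO-N rested on dKO-N 4, without which it was -0.81 (adjusted p = 0.171). That library was the deepest. Within dKO-N it also had the highest sum of the 7 genes listed for striatum (2172 CPM, where dKO-N 1 to 3 had 1260 to 1494). The same held for the 8 excitatory neuron markers (2303 against 1599 to 1785). The part of either in the result was not tested, and the first sum does not by itself measure striatal tissue. The dKO-E call was lost without control 2, dKO-E 1 or dKO-E 4 (adjusted p = 0.0728, 0.0683 and 0.0556), without control 1 and 3 (0.0886), without dKO-E 3 and 4 (0.127) and with DESeq2 (0.0771). Its log2 fold change was -0.79 without dKO-E 1 and -1.02 without control 1 and 3.

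**Figure D3:**
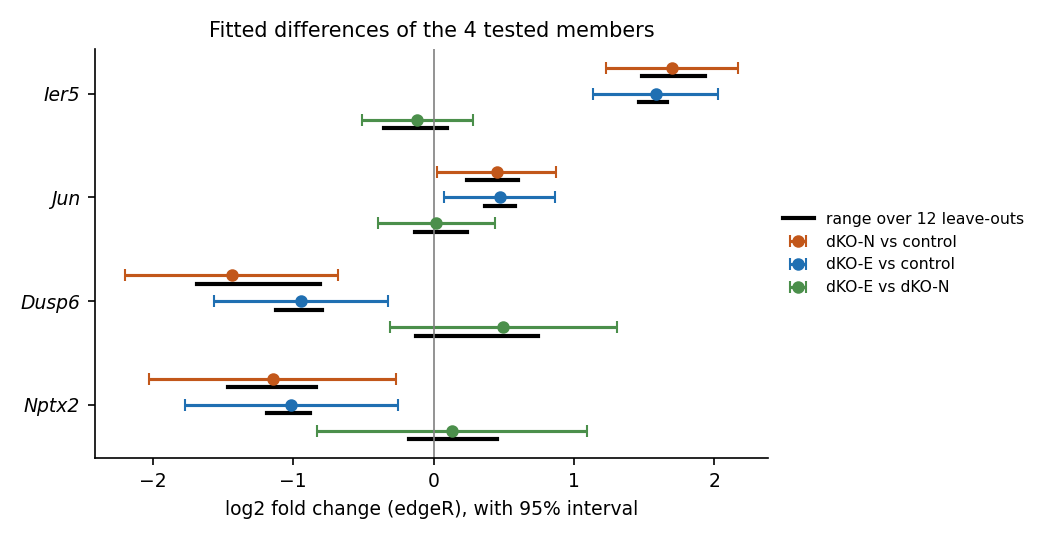
Fitted log2 fold changes (horizontal axis) of Ier5, Jun, Dusp6 and Nptx2 in the 3 comparisons, with 95% intervals from the edgeR fit; the thick black bar under each is the range when each of the 12 libraries is left out in turn. Ier5 lies at 1.70 and 1.58 against control, Dusp6 at -1.44 and -0.94, and every interval between dKO-E and dKO-N includes 0.

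Other feedback brakes and ETS factors that respond to ERK were read from a list of 19 genes that does not include Dusp6, of which 15 were tested. In dKO-N, 1 rose and 4 fell, with a median log2 fold change of -0.40. In dKO-E, 3 rose and 4 fell, with a median of 0.08, so the list did not move one way. Rises and falls were called in 5.04% and 6.29% of all genes in dKO-N and in 10.1% each way in dKO-E. Spry4, Etv5, Etv1 and Spred3 fell in both comparisons. Spry4, a Sprouty inhibitor of receptor signalling to ERK, had 7.75 to 9.93 CPM in control, 2.10 to 5.44 CPM in dKO-N and 0.782 to 2.80 CPM in dKO-E. Its log2 fold changes were -1.55 (adjusted p = 0.0095 by edgeR) and -2.27 (adjusted p = 5.27e-05). Like Nptx2, it entered the test through its control libraries. The ETS transcription factor gene Etv5 had log2 fold changes of -0.85 (adjusted p = 0.000886) and -1.03 (adjusted p = 1.12e-05), and its relative Etv1 had -0.54 (adjusted p = 0.0123) and -1.03 (adjusted p = 8.11e-07). Those of Spred3 were -0.98 and -1.02 (adjusted p = 0.0075 and 0.0012). The dKO-N calls of Spry4 and Spred3 were also lost without dKO-N 4. Fgfr1, a growth factor receptor gene, rose by 0.54 and 0.62 (adjusted p = 0.0078 and 0.000616), and Dusp4, another ERK phosphatase gene, rose in dKO-E from 17.7 ± 3.71 to 27.6 ± 6.98 CPM (log2 fold change 0.60, adjusted p = 0.0292). Dusp4 and Dusp6 thus changed in opposite directions in dKO-E. Spred1 rose in dKO-E as well (0.62, adjusted p = 6.6e-06).

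**Figure D4:**
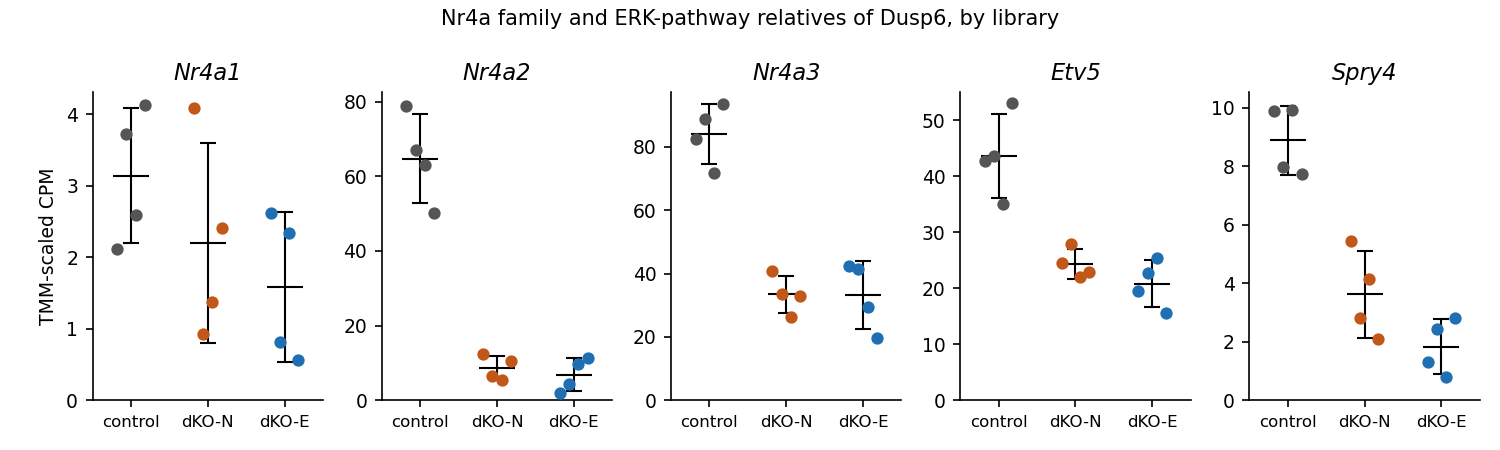
TMM-scaled CPM (vertical axis) of the Nr4a family and of ERK-pathway relatives of Dusp6, by group; points are libraries, and the bar and whisker are the mean ± SD of 4 libraries. Nr4a2 falls from 50.1 to 78.8 CPM in control to at most 12.2 CPM in any knockout library, while Nr4a1 stays under 4.2 CPM in all groups with overlapping points.

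Nptx2 encodes neuronal pentraxin 2, a secreted protein that gathers AMPA receptors at synapses onto interneurons. It lies on chromosome 5 (144545902 to 144557478, plus strand). Control 1 to 4 had 6.36, 5.86, 6.91 and 9.30 CPM of Nptx2. Levels were 2.72, 5.60, 2.76 and 2.40 CPM in dKO-N 1 to 4, from 2, 6, 2 and 8 counts, and 2.61, 4.46, 2.74 and 3.92 CPM in dKO-E 1 to 4. All knockout libraries lay below all control libraries, dKO-N 2 only just. Such a separation was seen in 7.19% of tested genes for dKO-N and 13.0% for dKO-E. Nptx2 entered the test through its control libraries, so a fall was the one direction in which it could differ by much. Its log2 fold change was -1.15 in dKO-N (SE 0.433, 95% interval -2.02 to -0.27, adjusted p = 0.0699 by edgeR) and -1.01 with Emx1-Cre (SE 0.375, 95% interval -1.77 to -0.25, adjusted p = 0.0441). The dKO-E call was lost in 14 of 20 alternatives, with adjusted p up to 0.256, and the dKO-N value passed without dKO-N 2 (-1.46, adjusted p = 0.0338).

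Genes of proteins that Nptx2 works with gave mixed values. The related pentraxin Nptx1 had 9.61 ± 4.53, 7.29 ± 3.33 and 5.02 ± 0.812 CPM in control, dKO-N and dKO-E (adjusted p = 0.447 and 0.0576 by edgeR), and their receptor gene Nptxr had 57.5 ± 7.43, 43.9 ± 15.2 and 61.0 ± 9.19 CPM (adjusted p = 0.104 and 0.725). Gria1, which encodes the AMPA receptor subunit GluA1, rose from 818 ± 28.7 CPM to 1144 ± 151 with Neurod6-Cre (log2 fold change 0.48, adjusted p = 0.000256) and 1517 ± 76.4 with Emx1-Cre (0.89, adjusted p = 1.55e-09). In the list of 18 binding partners and relatives of the members, 17 were tested. In dKO-N 1 rose (Gria1) and 1 fell (Mafg, a small Maf protein gene, log2 fold change -0.51), and in dKO-E 3 rose (Gria1, Rxra and Hsf1) and 2 fell, beside 5.04% and 6.29% of all genes in dKO-N and 10.1% each way in dKO-E. The Mafg call was lost in 13 of 22 alternatives (adjusted p up to 0.253) and the Hsf1 call in 7 of 22 (up to 0.358). Rxra encodes a nuclear receptor that pairs with Nur77 and Nurr1, and Hsf1 the heat shock factor bound by Ier5.

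Late activity-regulated genes are switched on after the transcription factors above and shape synapses and secretion. Of 25 listed, 15 were tested, of which 0 rose and 6 fell in dKO-N (median log2 fold change -0.56) and 0 rose and 7 fell in dKO-E (median -0.77), beside medians of 0.014 and 0.0068 over all genes. Rises were called in 5.04% of all genes in dKO-N and 10.1% in dKO-E, and falls in 6.29% and 10.1%. The granin genes Scg2 and Vgf fell from 14.8 ± 2.29 to 1.18 ± 1.19 CPM and from 11.2 ± 4.98 to 1.50 ± 1.15 CPM in dKO-N. Both had fewer than 3 counts in every dKO-N library, so the sizes of their fitted falls are imprecise. In dKO-E Vgf stood at 4.10 ± 1.74 CPM (log2 fold change -1.48, adjusted p = 0.0054 by edgeR), a call lost without control 4 (adjusted p = 0.0584). Vgf entered the test through its control libraries, and Scg2 through control and dKO-E libraries. A fall was thus the direction open to Vgf in the count above, and to Scg2 in dKO-N. Npy, a neuropeptide gene of interneurons, had log2 fold changes of -1.89 and -2.23, and Inhba, an activin subunit gene, had -1.29 and -2.20, and all 4 passed the test. The summed level of the 10 interneuron markers, Npy among them, overlapped between the groups, at 319 to 367 CPM in control, 294 to 362 in dKO-N and 272 to 419 in dKO-E, and 1 of 8 tested fell.

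Many other rapid immediate early genes were as scarce as Fos and Arc. Of 43 listed genes, 18 were tested, and 12 of the 25 left untested had under 3 counts in every library, among them Fosb, Npas4, Egr2 and Egr4, with no library above 20 counts for any of the 25. Among those tested, 1 rose and 3 fell in dKO-N (median log2 fold change -0.32), and 3 rose and 5 fell in dKO-E (median 0.01), beside shares of 5.04% and 6.29% of all genes in dKO-N and 10.1% each way in dKO-E. Beside Nr4a2 and Nr4a3, Homer1, a postsynaptic scaffold gene, had 213 to 232 CPM in control, 136 to 204 CPM with Neurod6-Cre (log2 fold change -0.36, adjusted p = 0.0139 by edgeR) and 129 to 148 CPM with Emx1-Cre (-0.67, adjusted p = 2.35e-06). Its dKO-N call was lost without dKO-N 1 (adjusted p = 0.0614). In dKO-E Sgk1, a kinase gene, fell by 0.89 on the log2 scale (adjusted p = 5.43e-07), while Tiparp and Per1 rose by 0.52 and 0.70 (adjusted p = 0.0185 and 0.0475).

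Upstream of the set, 45 of 46 listed calcium, ERK and transcription factor genes were tested. In dKO-N 1 rose and 13 fell (median log2 fold change -0.15), and in dKO-E 4 rose and 12 fell (median -0.14). Over all genes, 5.04% rose and 6.29% fell in dKO-N, and 10.1% went each way in dKO-E. The largest falls in dKO-N were in genes that carry calcium or lipid signals to Ras, namely Rasgrp1 (log2 fold change -2.22, adjusted p = 0.0050 by edgeR) and Rasgrf2 (-1.74, adjusted p = 1.52e-12), and in the NMDA receptor subunit gene Grin2a (-1.19, adjusted p = 4.7e-07). Rasgrp1 had 1, 2, 0 and 6 counts in dKO-N 1 to 4, so the size of its fall is imprecise. It entered the test through control and dKO-E libraries, so in dKO-N a fall was the direction open to it. Mef2c, a transcription factor gene, fell from 1953 ± 186 CPM to 1134 ± 61.2 and 1047 ± 142 with the Neurod6 and Emx1 drivers (log2 fold changes -0.78 and -0.90, adjusted p = 1.37e-07 and 3.9e-09). In dKO-E Rasgrf2 fell (log2 fold change -1.59), as did the TrkB gene Ntrk2 (-0.71), whereas Rasgrf1 rose by 1.68 (adjusted p = 0.0050).

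**Figure D5:**
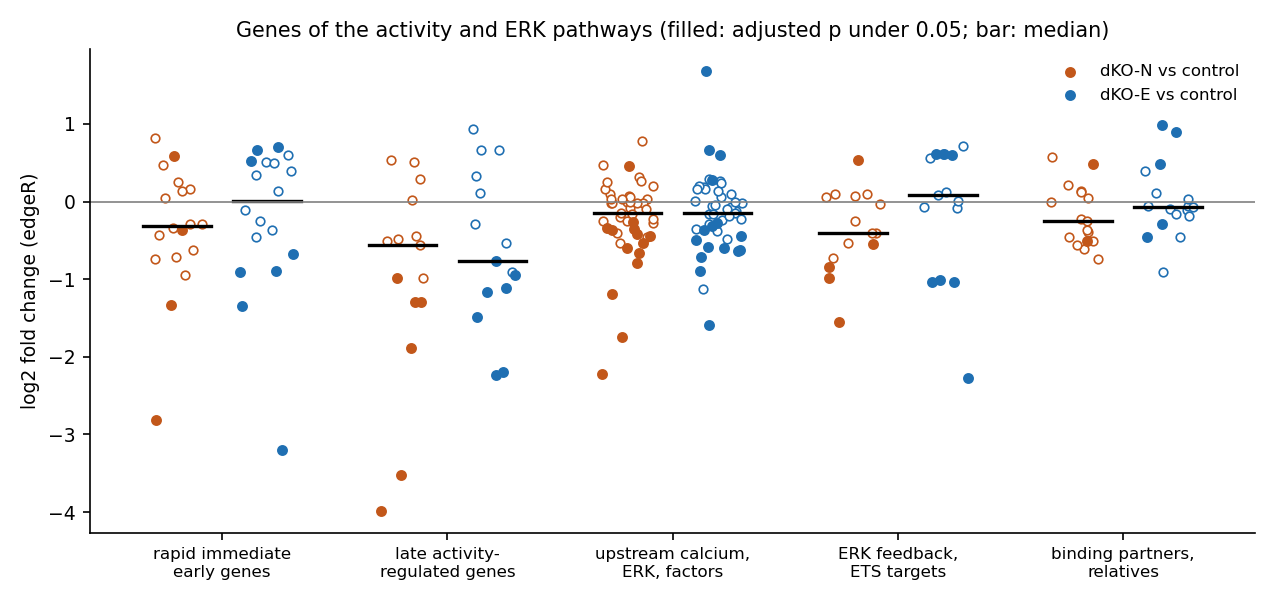
Log2 fold changes from the edgeR fit (vertical axis) of the tested genes of 5 lists, against control, for dKO-N and dKO-E; each point is a gene, filled where the adjusted p was under 0.05, and bars are list medians. The late activity genes have medians of -0.56 and -0.77 with no called rise, and the ERK feedback list has called genes on both sides of 0 in both comparisons.

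Cell type markers moved as well. The 8 excitatory neuron markers summed to 2494 to 2887 CPM in control, 1599 to 2303 in dKO-N and 1148 to 1515 in dKO-E, with Neurod1 at 0 in every group. In dKO-N 1 of 7 tested rose and 2 fell, and in dKO-E 1 rose and 3 fell. For this and the lists below, 5.04% of all genes rose and 6.29% fell in dKO-N, and 10.1% went each way in dKO-E. The 10 radial glia markers summed to 272 to 334, 374 to 454 and 346 to 423 CPM, with Sox2 at 0 in every group, and the 8 intermediate progenitor markers summed to 155 to 184, 214 to 297 and 189 to 229 CPM. Of 6 radial glia markers tested, 3 rose in dKO-N and 2 in dKO-E. Of 7 intermediate progenitor markers tested, 3 rose in each, and 0 of either list fell. The 9 endothelial and mural markers summed to 105 to 116, 76.2 to 98.8 and 77.0 to 108 CPM, and the 9 microglial markers to 10.6 to 17.6, 17.9 to 28.6 and 19.5 to 26.8 CPM, with C1qa and Tyrobp at 0 in dKO-E. In dKO-E, 1 of 8 endothelial and mural markers tested fell and 1 of 2 microglial markers tested rose. The 7 oligodendrocyte lineage markers summed to 66.5 to 80.6 CPM in control, 44.5 to 73.1 in dKO-N and 46.9 to 59.4 in dKO-E, where 2 of 6 tested fell. The 7 genes listed for striatum (Ppp1r1b, Drd1, Drd2, Adora2a, Isl1, Meis2 and Foxp1) summed to 1340 to 1474, 1260 to 2172 and 1180 to 1321 CPM. Such a sum follows its most abundant genes, and whether cortical cells express them was not checked, so it does not measure striatal tissue. Of 4 tested, 1 rose and 1 fell in dKO-N, and 0 rose and 2 fell in dKO-E. Sums of astrocyte and red blood cell markers overlapped between control and both knockouts, and 1 of 6 tested astrocyte markers rose in dKO-E. The 7 meningeal markers reached 94.7 CPM in dKO-E 1 and 36.9 CPM in dKO-E 2 against 10.1 to 17.6 CPM in the control and remaining dKO-E libraries, and Ier5 rose by 1.46 on the log2 scale without dKO-E 1. The part of these shifts in the levels of Ier5, Dusp6 and Nptx2 was not tested.

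Between the knockouts, 0 of the 4 tested members differed by edgeR, 0 had an unadjusted p under 0.05, and 0 were called by DESeq2, which gave no adjusted p for Dusp6 and Nptx2. Among all genes 6.84% differed, 3.73% with dKO-E lower, and in 4.8% dKO-E lay wholly below dKO-N. The differences of dKO-E from dKO-N were 0.50 for Dusp6 (95% interval -0.31 to 1.31, adjusted p = 0.497), 0.13 for Nptx2 (-0.83 to 1.09, adjusted p = 0.900) and 0.02 for Jun (-0.39 to 0.43, adjusted p = 0.966). The upper bounds for Dusp6 and Nptx2 both lie above a 2-fold difference. Of the listed genes named above, Scg2 was higher with Emx1-Cre than with Neurod6-Cre (log2 fold change 2.87, adjusted p = 0.000759), as were Gria1 (0.41, adjusted p = 0.0052), Spred1 (0.55, adjusted p = 0.000856) and Hsf1 (0.73, adjusted p = 0.00905). Scg2 had 1, 0, 2 and 2 counts in dKO-N 1 to 4 and entered the test through control and dKO-E libraries. A higher level in dKO-E was thus the direction open to Scg2, and its size is imprecise. Sgk1 (-0.60, adjusted p = 0.0043), Nrn1, a neuritin gene (-1.19, adjusted p = 0.0375), and Inhba (-0.91, adjusted p = 0.0453) were lower in dKO-E. The calls of Sgk1 and Hsf1 were lost without dKO-N 4 (adjusted p = 0.105 and 0.0993), that of Nrn1 in 11 of 20 alternatives (adjusted p up to 0.424) and that of Inhba in 14 of 22 (up to 0.161). Of the 45 tested upstream genes, 3 were higher in dKO-E, namely Grin2a (0.59, adjusted p = 0.0111), Atf1 (0.56, adjusted p = 0.0303) and Mef2d (0.55, adjusted p = 0.00905). Another 2 were lower, Map2k1 the most (-0.66, adjusted p = 0.0355). The calls of Grin2a and Mef2d were lost in 3 of 22 alternatives each, that of Map2k1 in 10 and that of Atf1 in 11.

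The promoters of the 2 members called with both drivers are shown with those of a pair of classic members, Fos and Nr4a1, to let the sequences be compared. Each is the stretch of 250 bases before the annotated start, from RefSeq (GRCm38.p6), written 5′ to 3′ on the strand of the gene. Windows matched 6 of the 10 members, those 4 with Jun and Junb, and none was given for Nptx2, Egr1, Egr3 and Arc. Capitals mark TGACG, the core of the cAMP response element that CREB binds, or GCGNGGGCG, the EGR site, read on either strand. The RefSeq start of Nr4a1 lies inside its GENCODE gene model, which begins further upstream at 101254269. The windows lie at chr1:155099637-155099886 (minus strand) for Ier5, chr10:99262981-99263230 (plus strand) for Dusp6, chr12:85473640-85473889 (plus strand) for Fos and chr15:101266596-101266845 (plus strand) for Nr4a1.
Ier5: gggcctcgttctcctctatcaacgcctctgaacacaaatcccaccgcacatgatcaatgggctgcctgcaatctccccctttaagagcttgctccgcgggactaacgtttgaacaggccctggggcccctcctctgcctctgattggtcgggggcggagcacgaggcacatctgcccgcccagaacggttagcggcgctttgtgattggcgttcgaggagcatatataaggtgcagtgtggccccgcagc
Dusp6: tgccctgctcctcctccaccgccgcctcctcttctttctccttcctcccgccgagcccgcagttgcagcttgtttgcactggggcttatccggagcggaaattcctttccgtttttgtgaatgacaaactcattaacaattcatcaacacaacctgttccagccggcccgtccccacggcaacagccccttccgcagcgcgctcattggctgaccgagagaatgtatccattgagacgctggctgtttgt
Fos: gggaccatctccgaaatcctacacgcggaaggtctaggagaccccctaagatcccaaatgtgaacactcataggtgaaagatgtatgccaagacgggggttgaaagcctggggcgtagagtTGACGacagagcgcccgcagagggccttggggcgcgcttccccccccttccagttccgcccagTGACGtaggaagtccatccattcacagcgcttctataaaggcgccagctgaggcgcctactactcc
Nr4a1: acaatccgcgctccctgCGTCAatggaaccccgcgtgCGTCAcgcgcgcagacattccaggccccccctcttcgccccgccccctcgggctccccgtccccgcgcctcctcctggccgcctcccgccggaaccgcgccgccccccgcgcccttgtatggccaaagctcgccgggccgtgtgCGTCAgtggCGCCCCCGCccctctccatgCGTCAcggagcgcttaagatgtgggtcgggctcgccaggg

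Within these windows the full cAMP response element TGACGTCA, the AP-1 site TGANTCA and the CArG box that SRF binds were also searched on both strands, and none was found in any of the 6. TGACG is contained in TGACGTCA and was found in 17.7% of all 32817 windows of this length, TGACGTCA in 1.55%, TGANTCA in 6.75%, GCGNGGGCG in 4.70% and the CArG box in 1.47%. Fos had TGACG in 2 places, Junb in 1, and Nr4a1 in 4, with 1 EGR site between the last 2. Ier5, Dusp6 and Jun had none of the 5 motifs in the window. A match or its absence is a description of these letters only.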

How the data were processed

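Per the labels, RNA from cortex lysed in trizol was depleted of ribosomal RNA and made into ClickSeq libraries, in which adapters are joined to randomly ended cDNA by click chemistry. Each library's deposited file holds whole-number gene counts that the authors did not normalize. The tools named in the submitters' processing notes are STAR, UMI-tools and HTSeq, with the mm10 build. Tool versions, annotation and strand setting: not given in the sources used here. UMIs (molecular barcodes) let duplicate reads be collapsed.

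Lines that name no gene stayed out of library sizes and tests, which left 85.2% to 88.9% of each library. Symbols and positions came from GENCODE M21 (mm10), with 51633 of 51912 identifiers matched (99.5%), and promoters from RefSeq. Names of 3 listed genes were updated through RefSeq synonyms (Cyr61 to Ccn1, Mkl1 to Mrtfa, Mkl2 to Mrtfb). R 4.3.3, edgeR 4.0.16 (TMM, filterByExpr with minimum count 10, robust quasi-likelihood fit) and limma 3.58.1 gave 1 fit over 12 libraries with a term for group, 9 residual degrees of freedom and a common biological coefficient of variation of 10.6%. The 11076 genes tested held 99% of counts. SEs and 95% intervals came from the fitted means and dispersions. DESeq2 1.42.0 served as an alternative, with other scalings and filters, a replicate block, libraries left out, and thinning to 722080 counts. Python 3.11.15, pandas 2.3.3, scipy 1.17.1 and matplotlib 3.10.9 made tables and plots.

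Separate animals are not stated in the labels, and p-values therefore reflect the spread among these 12 libraries, which may be technical. Within groups, every pair of libraries differed by more than sampling noise (chi-square over its degrees of freedom 1.62 to 5.99). The members, lists and marker lists were chosen with earlier results of these data known. Named from each list were up to 4 genes per comparison with the largest change among those that passed. Others named (Tiparp, Per1, Dusp4, Fgfr1, Nptx1, Nptxr, Jund and Spred1 in dKO-E, and the neighbours of Ier5) were chosen after their values were seen.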

Additional observations from a re-analysis of the deposited data

Results flagged for a closer look

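Levels of the 10 members were screened for a library far from the rest of its group, over 30 groups of 4 libraries, and 1 group was picked out, while chance picks out about 1 in 20. Nptx2 in dKO-N 2 stood at 5.60 CPM, where dKO-N 1, 3 and 4 had 2.40 to 2.76 CPM. The value rests on 6 counts.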

How the results depend on the processing

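Ier5 kept its direction and passed the test in all 22 alternatives with both drivers (log2 fold change 1.36 to 1.93 in dKO-N, 1.24 to 1.71 in dKO-E). The count of members called fell from 2 to 1 for dKO-N with libraries thinned to the shallowest, and from 3 to 1 for dKO-E with thinning, with DESeq2, without control 1 and 3, or without dKO-E 3 and 4. Leaving out single libraries gave 1 to 3 and 1 to 4 members, and 972 to 1298, 1699 to 2753 and 300 to 1036 of all genes in dKO-N, dKO-E and between the knockouts, where the full set gave 1255, 2238 and 758. The members called dropped to 1 without dKO-N 4 for dKO-N and without control 2 or dKO-E 1 for dKO-E, and the genes that differed between the knockouts dropped to 300, 476 and 421 without dKO-N 4, dKO-E 3 or dKO-E 4. All genes called fell to 756 and 746 in dKO-N (without control 1 and 3, thinned), to 1215, 1225 and 1203 in dKO-E (without control 1 and 3, without dKO-E 3 and 4, thinned), and between the knockouts to 199 (without dKO-E 3 and 4), 284 (thinned) and 488 (these groups alone in the fit). Same-numbered libraries did not deviate together (correlations -0.124 to 0.013), so the numbers do not pair them. With the replicate block, 500 genes differed between the knockouts, Jun differed by -0.012 there, and the Nptx2 call in dKO-E was lost (adjusted p = 0.0551). Between the knockouts, where no member was called, signs turned for Ier5 (0.0077 without dKO-E 3 and 4), and leaving out single libraries gave ranges of -0.36 to 0.10 for Ier5, -0.13 to 0.74 for Dusp6, -0.17 to 0.45 for Nptx2 and -0.13 to 0.23 for Jun. Library totals in place of TMM moved the median of all genes to 0.071, 0.135 and 0.069, and rises made up 57.8%, 73.9% and 65.4% of calls against 44.5%, 50.0% and 45.5%. Dusp6 and Nptx2 had too few counts to be tested after thinning. The cause of these shifts was not tested. Depth limits the scarce members: 3 counts in the shallowest library equal 4.08 CPM, above every group mean of Fos, Egr3, Junb, Arc and Nr4a1.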
